A study of Homo sapiens with 24 samples.

Results

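The genes described here are 10 transporters and enzymes that carry adenosine and its analogs across the cell membrane, phosphorylate them or break them down. They were taken by symbol from a table of 23354 genes: the nucleoside transporters SLC29A1 and SLC29A2, the kinases ADK and DCK, the deaminases ADA, AMPD2 and AMPD3, the nucleotidases NT5C2 and NT5E, and the phosphorylase PNP. All 10 were found. The RNA came from MV4-11 and KG-1a, which are established human lines of acute myeloid leukemia (AML), both labelled as wild type, and was read by RNA-seq. The cells were left untreated or were given 1 μM of the adenosine analog 8-chloro-adenosine (8CA), which has a chlorine atom at position 8 of the base, or 1 μM 8-amino-adenosine (8AA), which has an amino group there, for 8 h or 24 h. Each line, treatment and time had 2 libraries, called A and B, which makes 12 groups and 24 libraries. The labels do not say whether the libraries of a group came from separate cultures, so the tests measure the spread between these libraries. Each line stands for 1 source of cells, so whatever else differs between the lines cannot be told apart from the line.

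Library totals ran from 18633963 to 24520078 counts (median 21402883). The libraries of a pair differed by more than sampling noise, with a chi-square per degree of freedom of 1.43 to 5.2, except for KG-1a with 8AA at 24 h, where it was 12.3. That pair therefore stood apart, and each difference called for the 10 genes that rests on it is also given without its library A or its library B, which was not done for the wider list of genes described last. Both lines expressed the blood cell genes PTPRC and SPN. MV4-11 expressed the myeloid genes LYZ, FLT3, CD33, CSF1R, MEIS1, MPO and HOXA9, with CD14 at 0 to 0.262 CPM and CD34 at 0 to 0.173 CPM, which are counts scaled to the size of the library. KG-1a expressed CD34 at 326 to 646 CPM, whereas CD33, MPO, LYZ, CSF1R and FLT3 did not pass 2.22 CPM in any of its libraries and MEIS1 was listed at 0. HOXA9 went the other way, at 22.1 to 27.8 CPM in KG-1a and 7.21 to 9.49 CPM in MV4-11, and CD14 was at 0.144 to 0.641 CPM in KG-1a. KG-1a also carried the T cell transcripts CD3D at 174 to 263 CPM and CD3E at 21.5 to 80.5 CPM, both at 0 in every MV4-11 library.

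Adenosine and many of its analogs enter cells through equilibrative transporters, which SLC29A1 and SLC29A2 encode. Inside the cell, adenosine kinase adds the first phosphate, and further kinases make the triphosphate, which is the form of 8CA and 8AA that interferes with RNA synthesis. Adenosine deaminase, AMP deaminases, 5′-nucleotidases and purine nucleoside phosphorylase act at other steps and lead away from that form. Deoxycytidine kinase is best known for activating deoxynucleoside drugs. The 24 libraries show how much RNA for each of these steps a line made and how that amount differed after either drug.

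In untreated cells the lines differed most in deaminase and transporter RNA. Levels of different genes are compared here only per length, as RPKM (CPM divided by the exon length in kilobases, after TMM scaling, the trimmed mean of M-values). They are given as mean ± SD over the 4 untreated libraries of a line, at 8 h and 24 h, so the SD includes any difference between the times. In KG-1a, ADA stood far above the rest at 117 ± 13.3 RPKM, and SLC29A1 followed at 36.8 ± 3.83, DCK at 36 ± 2.78 and PNP at 35.8 ± 1.84. The ranges of these last 3 overlapped over both times, but their order differed between the times. At 8 h SLC29A1 (41.2 and 38.9) lay above PNP (37.8 and 35.1), and PNP above DCK (33.0 and 34.8). At 24 h DCK (39.5 and 36.8) lay above SLC29A1 (33.3 and 33.9) and PNP (33.5 and 36.6). Over both times ADK at 29.6 ± 1.7, AMPD2 at 27.3 ± 0.814 and NT5C2 at 26.6 ± 1.97 RPKM also overlapped each with the next. SLC29A2 at 23.8 ± 0.702 and AMPD3 at 8.61 ± 1.03 lay below them. In MV4-11, PNP led at 53.4 ± 2.51 RPKM, followed by ADK at 44.2 ± 0.641, ADA at 42.6 ± 0.963, SLC29A1 at 38.2 ± 2.24 and NT5C2 at 35.4 ± 2.15, of which SLC29A1 and NT5C2 alone overlapped. DCK stood at 29.3 ± 1.44 RPKM, AMPD2 at 13.2 ± 0.787 and AMPD3 at 1.71 ± 0.173. Adenosine kinase was thus just above adenosine deaminase in MV4-11 and well below it in KG-1a. SLC29A2 had 2 to 10 counts in the 12 MV4-11 libraries and 757 to 1363 in the KG-1a libraries.

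**Figure D1:**
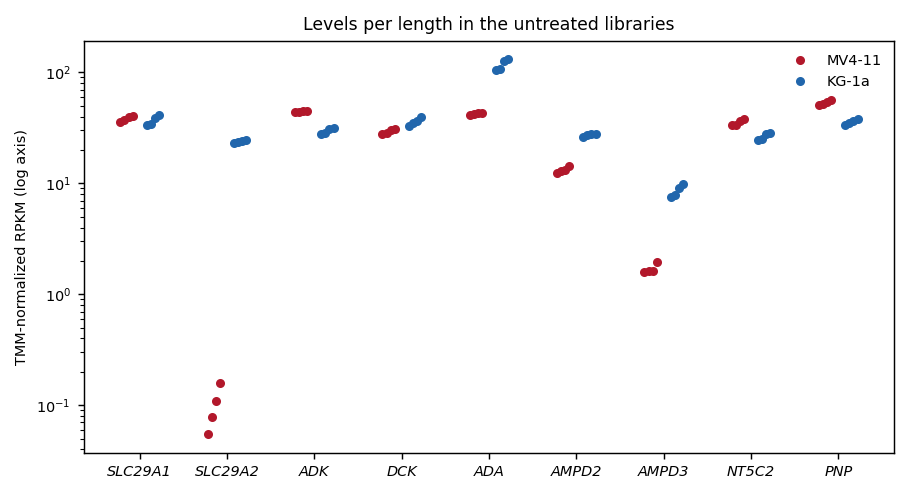
RPKM of the untreated libraries (vertical log axis) for 9 genes, with 4 points per line, red for MV4-11 and blue for KG-1a. ADA, AMPD2, AMPD3, DCK and SLC29A2 lay higher in every KG-1a library, and ADK, NT5C2 and PNP in every MV4-11 library. NT5E, at 0 in most libraries, is not drawn.

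The lines were compared with edgeR's quasi-likelihood test in a fit of all 24 libraries with Benjamini-Hochberg adjustment over 14055 genes. Genes under 0.05 after adjustment are named here as called. Of the 9 genes tested, 5 were called lower and 3 higher in untreated MV4-11 than in KG-1a at 24 h, where 41.0% of all genes were called lower and 41.0% higher (82.0% either way). SLC29A2 differed by −7.78 on the log2 scale, AMPD3 by −2.43, ADA by −1.63, AMPD2 by −1.10 and DCK by −0.41. The MV4-11 side of the SLC29A2 difference held 3 and 9 counts, so its direction was clear but its size was poorly measured. ADK was higher in MV4-11 by 0.62, PNP by 0.52 and NT5C2 by 0.36. At 8 h the same number of genes was called in each direction, 5 lower and 3 higher (42.1% and 40.1% of all genes, 82.2% either way), with ADA at −1.37, DCK at −0.28 and ADK at 0.43. The 8 h call of DCK was lost without the KG-1a untreated library B, where the difference was −0.16 (edgeR adjusted p = 0.0728). SLC29A1 was not called at either time, at −0.07 at 8 h and 0.08 at 24 h (95% interval −0.05 to 0.21), and with scaling to library size alone it came to −0.03 at 24 h and was called lower at 8 h, at −0.15 (edgeR adjusted p = 0.0243). Since each line makes up 1 side of this comparison and most of all genes were called, the counts alone say little about these 9 genes.

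Within a line, each drug was compared with the untreated libraries of the same time in a fit of the line's 12 libraries, which tested 8 of the 10 genes among 12800 in MV4-11 and 9 among 12711 in KG-1a. At 24 h, SLC29A1, ADK and PNP fell with either drug in either line, and NT5C2 rose with 8CA in both lines and with 8AA in KG-1a. ADA rose with both drugs in MV4-11 and with 8AA in KG-1a, and fell with 8CA in KG-1a. In MV4-11 with 8CA, 3 genes fell and 2 rose at 24 h (22.7% and 21.2% of all genes, 43.9% either way), and with 8AA 3 fell and 1 rose (15.3% and 13.9%, 29.1% either way). In KG-1a with 8CA, 5 fell and 1 rose (24.0% and 23.4%, 47.4% either way), and with 8AA 5 fell and 4 rose (26.6% and 25.4%, 51.9% either way), so that no tested gene of the 9 was left uncalled. The median absolute log2 change of the 9 genes with 8AA in KG-1a was 0.504, beside 0.254 over all genes, and in MV4-11 with 8CA it was 0.219 for the 8 genes, beside 0.213. The median signed change of the 9 genes in KG-1a was −0.26 with 8CA and −0.48 with 8AA, beside 0.0065 and 0.0134 over all genes. For the 8 genes in MV4-11 it was −0.0254 with 8CA and 0.0388 with 8AA, beside 0.00216 and 0.00318. TMM scaling holds the median over all genes near 0, and genes moved both ways, so these medians are descriptions and were not tested. The comparisons of a time share the same untreated libraries, so they do not count as separate evidence for each other. In bulk RNA, less RNA of a gene per cell and fewer cells that make it cannot be told apart.

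At 8 h fewer of the genes were called with 8CA than with 8AA in either line. In MV4-11 with 8CA, SLC29A1 and PNP fell, 2 of 8 genes, and 0 rose (5.77% and 4.58% of all genes, 10.4% either way), while with 8AA the same 2 fell and ADA and AMPD3 rose (15.6% and 13.6%, 29.2% either way). In KG-1a with 8CA, 0 of 9 genes were called either way (0.181% lower, 0.700% higher and 0.881% either way among all genes) by edgeR, although PNP at −0.21, AMPD2 at −0.16 and SLC29A2 at −0.16 had an unadjusted p below 0.05, 3 genes in all. DESeq2's Wald test called none of the 9 in that comparison, and edgeR without a filter on low counts called PNP alone (adjusted p = 0.0346). With 8AA in KG-1a, 5 genes fell at 8 h and 2 rose (18.0% and 16.7%, 34.7% either way).

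**Figure D2:**
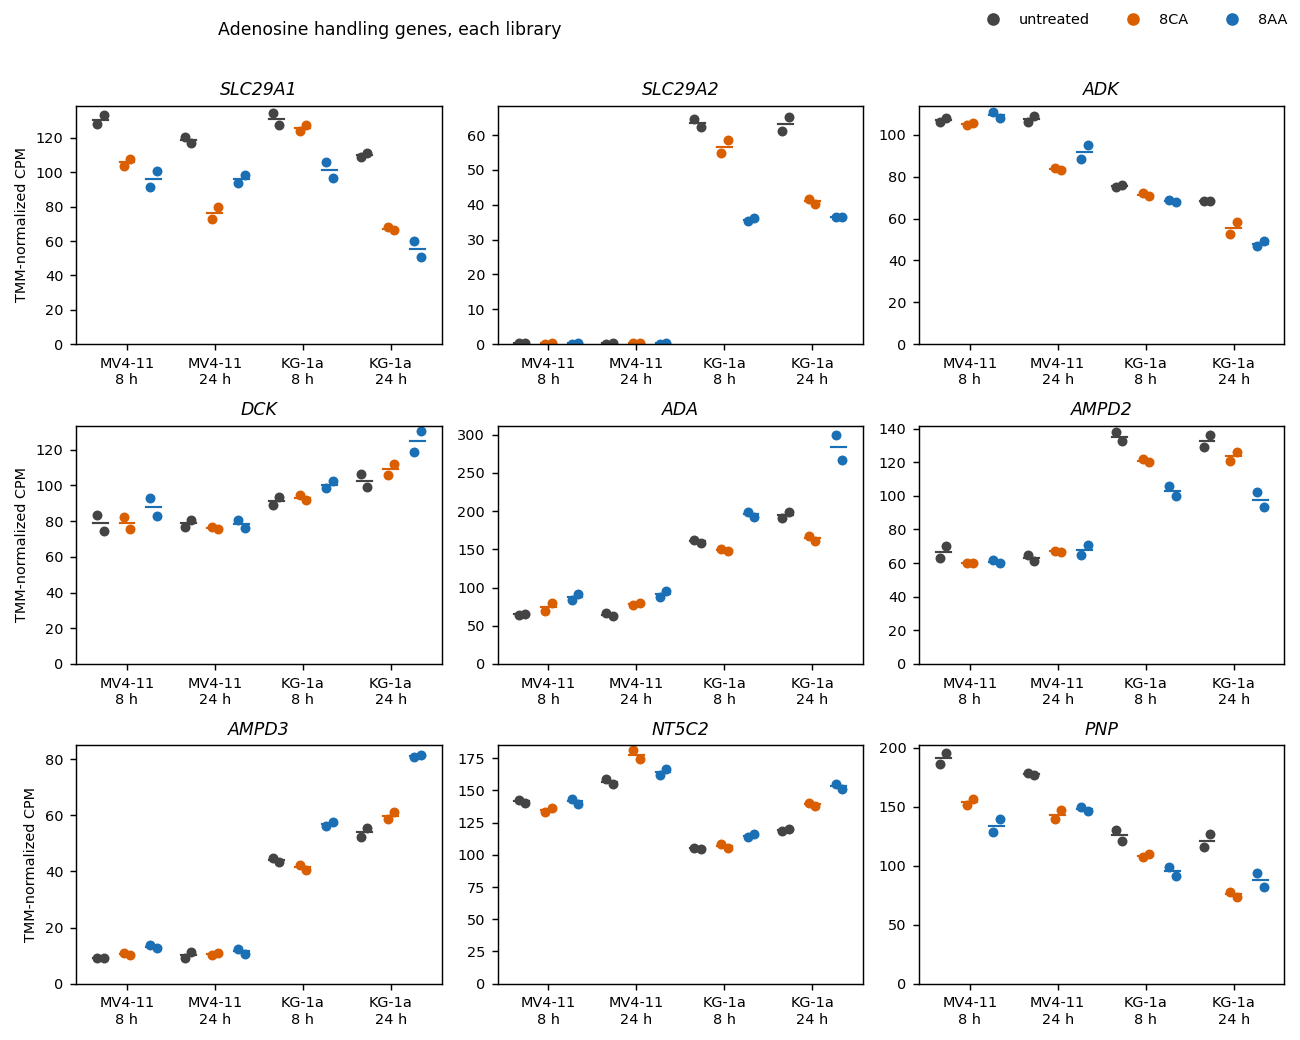
TMM-normalized CPM (vertical axis, from 0) of 9 genes in each library, by line and time, with grey for untreated, orange for 8CA and blue for 8AA, and a bar at each group's mean. SLC29A1, PNP and ADK were lower at 24 h in every treated library than in the untreated ones of the line, and ADA stood at 267.5 to 300.2 CPM in KG-1a with 8AA.

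**Figure D3:**
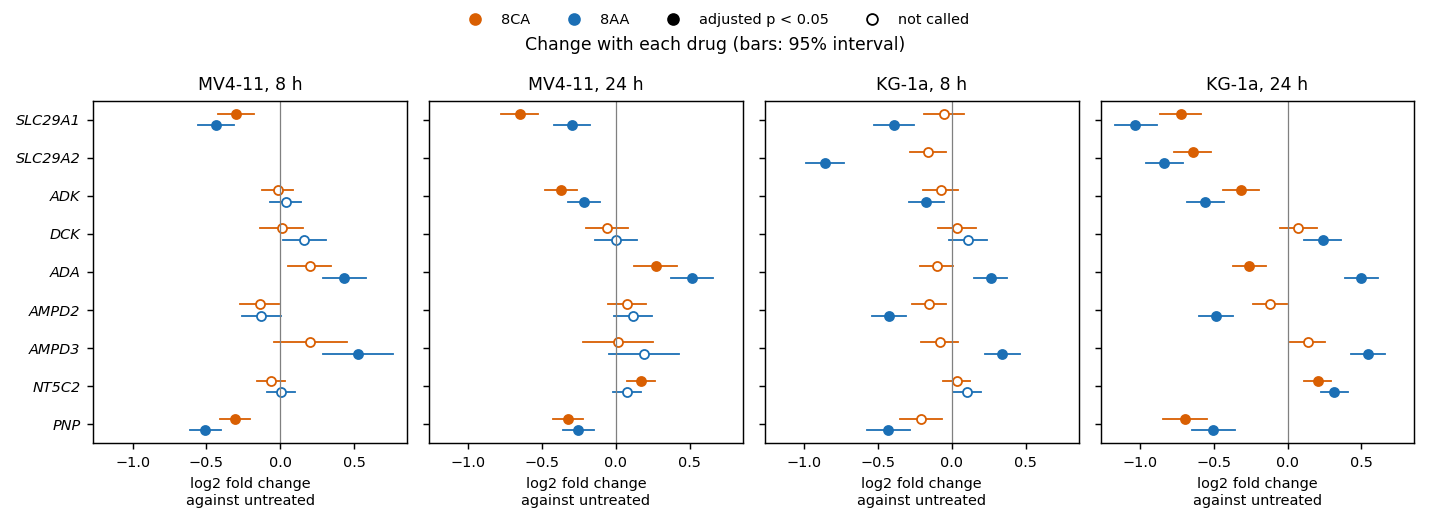
Log2 fold change against untreated (horizontal axis) with its 95% interval for 8CA in orange and 8AA in blue, in 4 panels for the lines and times, with filled points for an adjusted p below 0.05. Open points mark genes that were not called, and SLC29A2 has no value in MV4-11, where its counts were too low to test.

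SLC29A1 (chr6:44187242-44201888 on the plus strand in hg19), the main equilibrative nucleoside transporter of most blood cells, fell with either drug in both lines at 24 h, and in those 4 comparisons its fold change was the lowest of the 8 or 9 genes tested. Its promoter is shown because it is the transporter that fell in both lines, with capitals for the motifs searched (the E-box CACGTG, the CCAAT box CCAAT, the GC box GGGCGG, the CRE TGACGTCA and the E2F motifs TTTCGCGC and TTTGGCGC, on either strand). RefSeq gave 2 start sites, and the windows run from 250 bases before to 50 after each, at chr6:44219365-44219664 and chr6:44223345-44223644 of GRCh38.p14, plus strand.
SLC29A1 window 1: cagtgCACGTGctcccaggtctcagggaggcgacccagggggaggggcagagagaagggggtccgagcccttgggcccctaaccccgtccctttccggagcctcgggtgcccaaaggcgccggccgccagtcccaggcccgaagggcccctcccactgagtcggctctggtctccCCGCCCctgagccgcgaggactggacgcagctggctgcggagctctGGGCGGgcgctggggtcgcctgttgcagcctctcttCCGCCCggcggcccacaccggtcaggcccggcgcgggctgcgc
SLC29A1 window 2: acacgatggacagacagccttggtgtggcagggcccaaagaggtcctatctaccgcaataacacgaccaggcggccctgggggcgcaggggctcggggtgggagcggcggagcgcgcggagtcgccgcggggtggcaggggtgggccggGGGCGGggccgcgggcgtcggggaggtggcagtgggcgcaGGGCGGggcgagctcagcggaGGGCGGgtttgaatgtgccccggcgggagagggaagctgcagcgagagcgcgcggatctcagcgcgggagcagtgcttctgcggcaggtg
Window 1 held 1 E-box and 3 GC boxes and window 2 held 3 GC boxes.

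In MV4-11 at 24 h, SLC29A1 stood at 121 and 117 CPM in the untreated libraries, 72.8 and 79.7 under 8CA, and 93.7 and 98.3 under 8AA. The 3 groups did not overlap, which here and below is a description of 2 libraries each and not a test. The change was −0.65 ± 0.06 (log2 fold change ± SE) with 8CA, to 0.636 times the untreated level (edgeR adjusted p = 4.59e-07), and −0.30 ± 0.06 with 8AA (edgeR adjusted p = 0.00116). KG-1a had 109 and 111 CPM untreated, 68.3 and 66.2 under 8CA, and 59.8 and 50.9 under 8AA at 24 h. Again no group overlapped another, and the level with 8AA was the lowest. SLC29A1 fell there by 0.72 ± 0.07 on the log2 scale with 8CA (edgeR adjusted p = 5.03e-07) and by 1.03 ± 0.07 with 8AA, to 0.489 times the untreated level (edgeR adjusted p = 9.63e-09). Without library A of the 8AA pair the change was −1.15 and without library B −0.93, both called. At 8 h, the change in MV4-11 was −0.30 with 8CA and −0.43 with 8AA, and both were called. In KG-1a at 8 h it was −0.39 with 8AA, called, and −0.05 with 8CA, not called, where the untreated libraries at 135 and 127 CPM overlapped those with 8CA at 124 and 128 CPM.

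SLC29A2 (chr11:66129992-66139645, minus strand, hg19), the second equilibrative transporter, was measured in KG-1a alone. It stood at 61.3 and 65.2 CPM in untreated KG-1a at 24 h, at 41.7 and 40.2 under 8CA and at 36.6 and 36.4 under 8AA. The treated pairs lay well below the untreated pair. The change was −0.64 ± 0.06 with 8CA (edgeR adjusted p = 5.28e-07) and −0.84 ± 0.06 with 8AA (edgeR adjusted p = 2.3e-08), and for 8AA it stayed at −0.83 without library A and −0.84 without library B. With 8AA the decrease was already there at 8 h, at 35.3 and 36.1 CPM against 64.7 and 62.4 untreated, a change of −0.86 ± 0.06 to 0.552 times the untreated level (edgeR adjusted p = 7.89e-08). With 8CA at 8 h the change of −0.16 was not called (edgeR adjusted p = 0.241). In MV4-11, the 12 libraries held 63 counts of SLC29A2 in all, so no change could be measured at this depth.

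ADK (chr10:75910943-76469061, plus strand, hg19) encodes adenosine kinase, which adds the first phosphate to adenosine and to both drugs. Its 2 RefSeq windows lie at chr10:74150971-74151270 and chr10:74176513-74176812 of GRCh38.p14, plus strand, and are shown because ADK and SLC29A1 fell together at 24 h.
ADK window 1: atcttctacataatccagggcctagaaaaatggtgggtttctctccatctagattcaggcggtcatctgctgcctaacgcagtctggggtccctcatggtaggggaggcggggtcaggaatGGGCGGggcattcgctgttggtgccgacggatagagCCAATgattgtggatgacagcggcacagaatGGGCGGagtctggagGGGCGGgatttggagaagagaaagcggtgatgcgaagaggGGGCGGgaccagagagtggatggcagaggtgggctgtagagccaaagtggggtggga
ADK window 2: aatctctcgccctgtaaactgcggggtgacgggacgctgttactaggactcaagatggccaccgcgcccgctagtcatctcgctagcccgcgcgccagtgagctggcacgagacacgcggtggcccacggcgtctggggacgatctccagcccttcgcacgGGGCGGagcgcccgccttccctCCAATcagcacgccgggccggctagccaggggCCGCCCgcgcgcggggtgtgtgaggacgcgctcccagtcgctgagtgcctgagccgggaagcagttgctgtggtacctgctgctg
Both windows held a CCAAT box, and they held 4 and 2 GC boxes.

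In MV4-11 at 24 h, ADK stood at 106 and 109 CPM untreated, at 84.0 and 83.4 under 8CA and at 88.4 and 95.3 under 8AA. Neither treated pair reached the untreated one. The change was −0.37 ± 0.05 with 8CA (edgeR adjusted p = 2.59e-05). With 8AA it was −0.22 ± 0.05 (edgeR adjusted p = 0.00413), a call that was lost without the untreated library B (−0.19, edgeR adjusted p = 0.0506) and without the 8AA library A (−0.16, edgeR adjusted p = 0.0731). KG-1a at 24 h had 68.6 and 68.1 CPM untreated, 52.8 and 58.4 under 8CA, and 46.8 and 49.2 under 8AA. ADK fell there with either drug, by 0.31 ± 0.06 with 8CA (edgeR adjusted p = 0.000342) and by 0.56 ± 0.06 with 8AA (edgeR adjusted p = 1.15e-06). Without the 8AA library A the latter change was −0.51 and without library B −0.60. At 8 h ADK was within 0.08 of the untreated level on the log2 scale with 8CA in both lines and with 8AA in MV4-11, none of them called. In KG-1a with 8AA at 8 h the change was −0.17 (edgeR adjusted p = 0.0246), and the call was lost whichever of the 4 libraries was left out (edgeR adjusted p up to 0.13) and with scaling to library size alone (edgeR adjusted p = 0.0728).

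DCK (chr4:71859265-71896629, plus strand, hg19), deoxycytidine kinase, was called in 1 of the 8 comparisons with untreated cells. In MV4-11 at 24 h the untreated libraries at 77.0 and 80.6 CPM overlapped those with 8AA at 80.4 and 76.2, and those with 8CA stood at 76.6 and 75.6. Neither change was called, at −0.06 with 8CA (95% interval −0.21 to 0.08) and 0.00 with 8AA (95% interval −0.14 to 0.14). In KG-1a at 24 h the untreated libraries held 106.2 and 99.0 CPM and those with 8AA 119 and 131. DCK rose there by 0.24 ± 0.06 (edgeR adjusted p = 0.00312), by 0.31 without the 8AA library A and by 0.16 without library B, and the call was lost without the untreated library B (0.18, edgeR adjusted p = 0.0681). With 8CA the KG-1a change at 24 h was 0.07 and was not called. At 8 h DCK was not called in any of the 4 comparisons, although in MV4-11 with 8AA (0.16, edgeR adjusted p = 0.0793) it was called without a filter on low counts, with scaling to library size alone, with the replicate letter as a block, and without the untreated library A or the 8AA library B (0.16 to 0.25, edgeR adjusted p = 0.0217 to 0.0421).

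ADA (chr20:43248163-43280376, minus strand, hg19), the deaminase that turns adenosine into inosine, fell with 8CA and rose with 8AA in KG-1a at 24 h, and rose with either drug in MV4-11. Its RefSeq window at chr20:44651650-44651949 of GRCh38.p14, minus strand, is shown because the gene moved in the opposite direction to SLC29A1 and ADK in 3 of the 4 comparisons at 24 h.
ADA window: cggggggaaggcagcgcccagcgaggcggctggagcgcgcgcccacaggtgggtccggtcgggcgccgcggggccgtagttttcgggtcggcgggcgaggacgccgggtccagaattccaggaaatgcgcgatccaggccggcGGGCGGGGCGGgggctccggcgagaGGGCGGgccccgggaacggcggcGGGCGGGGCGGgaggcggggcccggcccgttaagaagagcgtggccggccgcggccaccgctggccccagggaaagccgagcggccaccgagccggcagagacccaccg
The window held 5 GC boxes, some of which overlap, and no CCAAT box, and its GC content was 79.3%, beside a median of 58.7% over all windows.

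KG-1a at 24 h had 191 and 199 CPM of ADA untreated, 168 and 161 under 8CA, and 300.2 and 267.5 under 8AA. All 3 pairs were apart. ADA fell by 0.26 ± 0.05 with 8CA (edgeR adjusted p = 0.000819) and rose by 0.50 ± 0.05 with 8AA, to 1.42 times the untreated level (edgeR adjusted p = 1.07e-06). Both changes are against untreated cells of the same time. Mean ADA was 160 CPM at 8 h and 195 at 24 h in untreated KG-1a, and 149 and 164 with 8CA. The rise with 8AA was 0.42 without library A and 0.58 without library B. In MV4-11 at 24 h the gene stood at 66.0 and 62.7 CPM untreated, at 76.7 and 79.7 under 8CA and at 87.2 and 95.4 under 8AA. Here it rose with either drug, by 0.27 ± 0.07 with 8CA (edgeR adjusted p = 0.00487) and by 0.51 ± 0.07 with 8AA (edgeR adjusted p = 5.58e-05). The call for 8CA was lost without the untreated library B (0.23, edgeR adjusted p = 0.0549). At 8 h, 8AA gave 0.43 in MV4-11 and 0.26 in KG-1a, both called, and 8CA gave 0.20 and −0.10, neither called. In MV4-11 the change with 8CA at 8 h was called with scaling to library size alone, without a filter, with the replicate letter as a block, and without the 8CA library A. The 12 markers of other cell types, which include the T cell genes CD3D and CD3E, summed to 284 to 292 CPM in untreated KG-1a at 24 h, to 208 to 217 with 8CA and to 283 to 347 with 8AA, and CD3D and CD3E made up most of each sum. At 8 h the sum was 276 to 283 CPM in untreated KG-1a, 250 to 255 with 8CA and 271 to 291 with 8AA. In MV4-11 the same sum was 5.49 to 10.6 CPM over all libraries. The part of those transcripts in the ADA values was not tested.

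AMPD2 and AMPD3, which encode AMP deaminases, moved apart in KG-1a. AMPD2 (chr1:110162126-110174677, plus strand, hg19) stood at 129 and 136 CPM in untreated KG-1a at 24 h, at 120.5 and 126 under 8CA and at 102 and 93.2 under 8AA. It fell with 8AA by 0.48 ± 0.05 (edgeR adjusted p = 2.43e-06), by 0.55 without library A and by 0.43 without library B, and it was already lower by 0.42 at 8 h. With 8CA its changes of −0.16 at 8 h and −0.12 at 24 h were not called (edgeR adjusted p = 0.215 and 0.0807). In MV4-11 AMPD2 was not called in any of the 4 comparisons, with log2 changes from −0.14 to 0.12, and was called at 24 h with 8AA when scaled to library size alone (0.17, edgeR adjusted p = 0.0494). The table also holds 2 rows on chromosome 1, LOC100132062 and LOC100133331, whose listed spans include AMPD2.

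AMPD3 (chr11:10471868-10529126, plus strand, hg19) had 52.1 and 55.7 CPM in untreated KG-1a at 24 h, 58.6 and 61.1 under 8CA, and 80.7 and 81.4 under 8AA. The pair with 8AA lay above the other libraries of the line. It rose by 0.55 ± 0.05 (edgeR adjusted p = 7.45e-07), by 0.56 without library A and by 0.53 without library B, and by 0.34 at 8 h. The change of 0.14 with 8CA at 24 h was not called (edgeR adjusted p = 0.0569), except with scaling to library size alone (0.16). In MV4-11, AMPD3 rose with 8AA at 8 h, from 9.09 and 9.28 CPM to 13.7 and 12.7, by 0.53 ± 0.11 (edgeR adjusted p = 0.00232). At 24 h it was at 0.19 with 8AA (95% interval −0.05 to 0.42) and 0.01 with 8CA, neither called.

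NT5C2 (chr10:104847774-104953063, minus strand, hg19), a cytosolic 5′-nucleotidase that removes the phosphate from purine monophosphates, rose at 24 h with 8CA in both lines and with 8AA in KG-1a. MV4-11 held 159 and 155 CPM untreated, 181 and 175 under 8CA, and 162 and 167 under 8AA. The rise with 8CA was 0.17 ± 0.04 (edgeR adjusted p = 0.00574), and the call was lost without the untreated library B (0.15, edgeR adjusted p = 0.0538) and without the 8CA library A (0.14, edgeR adjusted p = 0.0633). The change with 8AA was 0.08 and was not called, except with scaling to library size alone (0.13). In KG-1a the untreated libraries at 118.5 and 120.1 CPM lay below those with 8CA, at 140.5 and 138, and with 8AA, at 155 and 151. NT5C2 rose there by 0.21 ± 0.04 with 8CA (edgeR adjusted p = 0.00108) and by 0.32 ± 0.04 with 8AA (edgeR adjusted p = 1.69e-05), the latter at 0.31 without library A and 0.33 without library B. At 8 h it was not called in any of the 4 comparisons, except in KG-1a with 8AA when scaled to library size alone (0.14, edgeR adjusted p = 0.0173).

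NT5E (chr6:86159302-86205509, plus strand, hg19), the surface nucleotidase CD73 that makes adenosine from AMP outside the cell, was hardly detected. MV4-11 held 6 counts over its 12 libraries, 8 of which had 0, and KG-1a held 1 count, with 11 of 12 libraries at 0. A count of 0 allows up to 3 counts, which is 0.123 to 0.158 CPM in these libraries, for counting error alone. NT5E was not tested, and no change was detectable at this depth.

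PNP (chr14:20937538-20946165, plus strand, hg19), purine nucleoside phosphorylase, splits inosine and guanosine into a base and a sugar phosphate. Its RefSeq window, chr14:20469156-20469455 of GRCh38.p14, plus strand, is shown beside those of the other 2 genes that fell in all 4 comparisons at 24 h.
PNP window: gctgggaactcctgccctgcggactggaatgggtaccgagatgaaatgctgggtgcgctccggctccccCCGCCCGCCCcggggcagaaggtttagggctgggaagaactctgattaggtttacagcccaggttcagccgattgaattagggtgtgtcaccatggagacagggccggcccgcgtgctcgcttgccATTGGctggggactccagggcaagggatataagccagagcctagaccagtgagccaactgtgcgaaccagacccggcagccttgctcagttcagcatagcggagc
It held 2 GC boxes, which overlap, and 1 CCAAT box on the other strand.

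Like SLC29A1, and unlike the other 6 genes tested in MV4-11, PNP fell at both times with both drugs in that line. At 8 h the MV4-11 libraries stood at 186 and 196 CPM untreated, at 152 and 156 under 8CA, and at 129 and 139 under 8AA. The 3 pairs did not overlap. The change was −0.31 ± 0.05 with 8CA (edgeR adjusted p = 0.0014) and −0.51 ± 0.05 with 8AA (edgeR adjusted p = 3.29e-06). At 24 h it was −0.32 ± 0.05 and −0.25 ± 0.05, both called. In KG-1a at 24 h the untreated libraries at 116 and 126 CPM lay above those with 8CA, at 77.6 and 73.8, and with 8AA, at 94.1 and 81.6. PNP fell by 0.69 ± 0.07 with 8CA, to 0.619 times the untreated level (edgeR adjusted p = 1.19e-06), and by 0.50 ± 0.07 with 8AA (edgeR adjusted p = 1.72e-05). The change with 8AA was −0.60 without library A and −0.41 without library B. At 8 h in KG-1a, PNP fell with 8AA by 0.43 ± 0.07 (edgeR adjusted p = 0.000177), and with 8CA it was at −0.21 (edgeR adjusted p = 0.183).

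The drugs were then set against each other at the same dose, line and time. 8CA and 8AA differ only in the group at position 8 of the base. Whether 1 μM of each was equally strong, or equally taken up and phosphorylated, was not tested. In KG-1a at 24 h all 9 tested genes differed, with 4 lower and 5 higher with 8AA than with 8CA (21.7% and 20.3% of all genes, 42.0% either way). ADA showed the largest difference, 0.76 ± 0.05 or 1.69 times the level with 8CA (edgeR adjusted p = 1.85e-08), at 0.68 without the 8AA library A and 0.84 without library B. AMPD3 was higher by 0.41 (0.42 and 0.40 without A and B) and AMPD2 lower by 0.37 (−0.43 and −0.31), and both were still called. SLC29A1 was lower with 8AA by 0.31 (95% interval −0.45 to −0.16), and its difference was −0.43 without library A and −0.20 without library B (edgeR adjusted p = 0.00878). ADK was lower by 0.24 (−0.20 and −0.28 without the 8AA libraries A and B), a call lost without the 8CA library B (−0.16, edgeR adjusted p = 0.0824). SLC29A2 was lower by 0.19 (−0.19 and −0.20 without the 8AA libraries A and B) and lost its call without the 8CA library A (−0.17, edgeR adjusted p = 0.13).

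The 3 smallest differences in KG-1a at 24 h were called close to the threshold (edgeR adjusted p = 0.0317 for DCK, 0.0411 for PNP and 0.0473 for NT5C2). Each lost its call in some of the fits that left out a library. In those fits the difference of DCK was smaller, whereas those of PNP and NT5C2 moved either way. DCK was higher with 8AA by 0.17 (0.24 without the 8AA library A), but not without the 8CA library A (0.13, edgeR adjusted p = 0.213) or the 8AA library B (0.09, edgeR adjusted p = 0.175). PNP was higher by 0.19 (0.28 without the 8AA library B), but not without the 8CA library A (0.23, edgeR adjusted p = 0.0725), the 8CA library B (0.16, edgeR adjusted p = 0.211) or the 8AA library A (0.09, edgeR adjusted p = 0.298). NT5C2 was higher by 0.11 (0.12 without the 8AA library B), but not without the 8CA library A (0.13, edgeR adjusted p = 0.109), the 8CA library B (0.10, edgeR adjusted p = 0.211) or the 8AA library A (0.10, edgeR adjusted p = 0.0779). DESeq2's Wald test did not call these 3 genes or SLC29A2 in this contrast. SLC29A2 was also not called with scaling to library size alone (edgeR adjusted p = 0.106), nor NT5C2 with DESeq2's size factors or without a filter (edgeR adjusted p = 0.0506 and 0.146).

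At 8 h in KG-1a, 4 genes were lower and 2 higher with 8AA (15.8% and 14.7% of all genes, 30.4% either way). SLC29A2 differed most, at −0.70 ± 0.06 (edgeR adjusted p = 8.13e-07), followed by AMPD3 at 0.42, ADA at 0.37, SLC29A1 at −0.34, AMPD2 at −0.27 and PNP at −0.22. The call for PNP was lost without the 8CA library A (−0.24, edgeR adjusted p = 0.0717), the 8CA library B (−0.20, edgeR adjusted p = 0.141) or the 8AA library B (−0.16, edgeR adjusted p = 0.207). ADK, DCK and NT5C2 differed by −0.10, 0.07 and 0.07 and were not called, with 95% intervals of −0.22 to 0.02, −0.05 to 0.20 and −0.02 to 0.16.

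**Figure D4:**
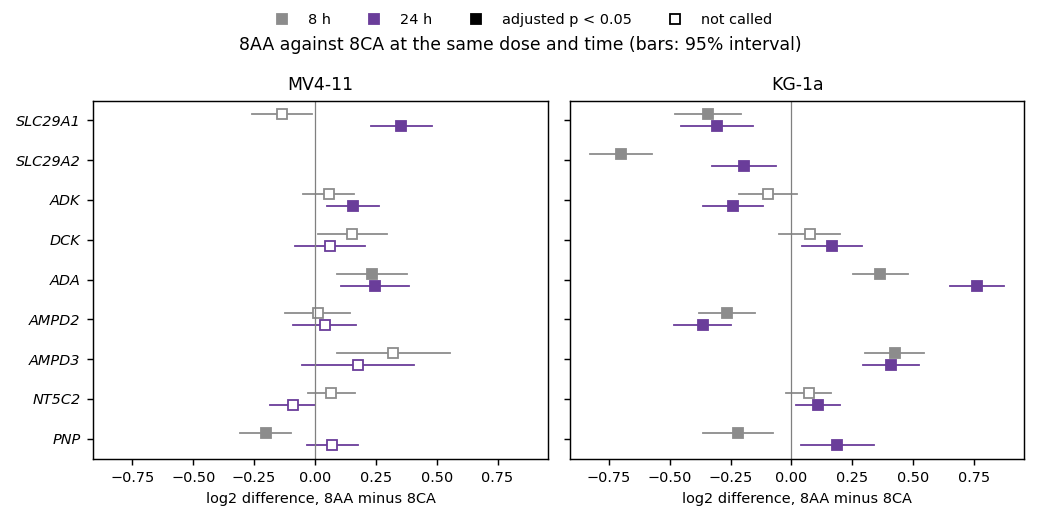
Log2 difference between 8AA and 8CA (horizontal axis, 8AA minus 8CA) with its 95% interval at 8 h in grey and 24 h in purple, for each line, with filled squares for an adjusted p below 0.05. SLC29A1 lay at 0.35 in MV4-11 and −0.31 in KG-1a at 24 h, on opposite sides of 0, while ADA lay above 0 in all 4 contrasts.

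MV4-11 showed fewer differences between the drugs. At 24 h, 0 genes were lower and 3 higher with 8AA (9.48% and 11.7% of all genes, 21.2% either way). SLC29A1 was higher with 8AA by 0.35 ± 0.06 (edgeR adjusted p = 0.0006), the opposite direction to KG-1a. ADA was higher by 0.25, but not without the 8CA library A (0.22, edgeR adjusted p = 0.129) or the 8AA library B (0.17, edgeR adjusted p = 0.18). ADK was higher by 0.16, but not without the 8CA library A (0.16, edgeR adjusted p = 0.14), the 8CA library B (0.15, edgeR adjusted p = 0.131) or the 8AA library B (0.09, edgeR adjusted p = 0.328), and neither DESeq2's Wald test nor the fit without a filter called it. The other 5 genes were not called, and their 95% intervals ran from −0.19 at the lowest (NT5C2) to 0.41 at the highest (AMPD3). At 8 h, PNP was lower with 8AA and ADA higher, 1 of 8 genes in each direction (3.70% and 2.96% of all genes, 6.66% either way), at −0.20 and 0.23. The call for PNP was lost without the 8CA library A (−0.23, edgeR adjusted p = 0.0574), the 8CA library B (−0.18, edgeR adjusted p = 0.149) or the 8AA library A (−0.15, edgeR adjusted p = 0.178). That for ADA was lost without the 8CA library A (0.14, edgeR adjusted p = 0.346), without the 8AA library B (0.17, edgeR adjusted p = 0.246) and with DESeq2's Wald test (adjusted p = 0.0691).

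The change between 8 h and 24 h was tested as the difference of the responses, each against the untreated libraries of its own time. With 8CA in KG-1a, 4 of 9 responses were lower at 24 h than at 8 h and 0 higher (12.7% and 11.2% of all genes, 23.9% either way). The difference was −0.67 for SLC29A1, −0.48 for PNP, −0.48 for SLC29A2 and −0.24 for ADK, and the call for ADK held in only 1 of the 8 fits that left out a library, that without the 8CA 24 h library B (edgeR adjusted p up to 0.157 in the other 7), and it did not hold with scaling to library size alone, without a filter or with DESeq2's Wald test (adjusted p = 0.058, 0.0546 and 0.1). With 8CA in MV4-11, the responses of ADK (−0.36) and SLC29A1 (−0.35) were lower at 24 h and that of NT5C2 (0.23) higher, 2 and 1 of 8 genes (9.83% and 6.48%, 16.3% either way). SLC29A1 lost this call without the 8CA 24 h library A (−0.29, edgeR adjusted p = 0.056), and NT5C2 lost it without the 8 h untreated library A, the 8 h 8CA library A, the 24 h untreated library B or the 24 h 8CA library A (0.21 to 0.22, edgeR adjusted p = 0.0623 to 0.093).

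With 8AA in KG-1a, 2 responses were lower at 24 h and 2 higher (10.7% and 7.64% of all genes, 18.3% either way). SLC29A1 differed by −0.64, at −0.76 without the 24 h 8AA library A and −0.53 without library B, and ADK by −0.38, at −0.34 and −0.42, all called. ADA at 0.24 (0.16 and 0.31 without those libraries) and NT5C2 at 0.21 (0.20 and 0.22) kept their calls without either of those 2 libraries, but lost them without any 1 of the other 6 (edgeR adjusted p up to 0.17 for ADA and 0.115 for NT5C2). NT5C2 also lost its call without a filter (edgeR adjusted p = 0.0783) and with DESeq2's Wald test (adjusted p = 0.0549). DCK at 0.13 and AMPD3 at 0.20 were not called, but were called without the 24 h 8AA library A (0.20 and 0.22, edgeR adjusted p = 0.0306 and 0.0435). The SLC29A2 response to 8AA did not differ detectably between the times (0.02, 95% interval −0.16 to 0.20). With 8AA in MV4-11, 0 responses were lower and 1 higher at 24 h (2.12% and 2.51%, 4.63% either way), that of PNP at 0.25 (edgeR adjusted p = 0.0484). Leaving out any library but the 8 h 8AA library B ended this call (edgeR adjusted p up to 0.163).

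Whether the lines responded differently was tested as the response in MV4-11 minus that in KG-1a. With 8AA at 24 h, 2 of 9 genes were lower and 4 higher by this measure (8.51% and 13.8% of all genes, 22.3% either way). SLC29A1 differed most, at 0.75 ± 0.09 (edgeR adjusted p = 2.62e-06), which means a smaller decrease in MV4-11, at 0.80 without the KG-1a 8AA library A and 0.57 without library B. AMPD2 differed by 0.62 (0.61 and 0.49 without those libraries) and ADK by 0.36 (0.25 and 0.33), all called. NT5C2 differed by −0.22 (−0.28 and −0.30), also called. AMPD3 differed by −0.34 (−0.42 and −0.40), but not without the MV4-11 untreated library B (−0.19, edgeR adjusted p = 0.344) or the MV4-11 8AA library B (−0.24, edgeR adjusted p = 0.196), nor with DESeq2's Wald test (adjusted p = 0.0536). PNP differed by 0.27, a call that held only without the KG-1a 8AA library A, where it was 0.30, and that was lost without any of the other 7 libraries, down to 0.13 without the KG-1a untreated library B (edgeR adjusted p = 0.4) and 0.10 without the KG-1a 8AA library B (edgeR adjusted p = 0.432), and PNP was not called with scaling to library size alone, without a filter or with DESeq2's Wald test. ADA, which rose with 8AA in both lines, differed by 0.03 (95% interval −0.15 to 0.22), by 0.04 and −0.12 without the KG-1a 8AA libraries A and B, and by −0.03 with scaling to library size alone. DCK differed by −0.22 (edgeR adjusted p = 0.0949) and was called without the KG-1a 8AA library A (−0.36, edgeR adjusted p = 0.0063) or untreated library A (−0.34, edgeR adjusted p = 0.0273), without a filter and with scaling to library size alone. SLC29A2 was tested in this fit with few MV4-11 counts, at 0.09 (95% interval −1.63 to 1.82).

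For 8CA at 24 h, 0 of 9 genes were lower by this measure and 2 higher (5.44% and 5.76% of all genes, 11.2% either way). ADA differed by 0.55 ± 0.09 (edgeR adjusted p = 0.000228), rising in MV4-11 and falling in KG-1a. PNP differed by 0.39, and its call was lost without the KG-1a untreated library B (0.30, edgeR adjusted p = 0.0594). SLC29A1 and ADK, which fell in both lines, differed by 0.09 (95% interval −0.10 to 0.29) and −0.04 (95% interval −0.19 to 0.12). At 8 h, the responses to 8AA were higher in MV4-11 for 2 genes and lower for 0 (7.49% and 3.60% of all genes, 11.1% either way), AMPD2 at 0.33 and ADK at 0.25. AMPD2 lost this call without the MV4-11 untreated library A, either KG-1a untreated library or the KG-1a 8AA library B (0.22 to 0.29, edgeR adjusted p up to 0.158), and ADK lost it whichever of the 8 libraries was left out (edgeR adjusted p up to 0.243), with scaling to library size alone, without a filter and with DESeq2's Wald test. With 8CA at 8 h, 0 genes were called in either direction by edgeR (0.726% lower, 0.427% higher and 1.15% either way among all genes), with 3 of 9 at an unadjusted p below 0.05 and 0 by DESeq2. ADA, at 0.31 in that comparison, was called without a filter (0.30, edgeR adjusted p = 0.0309) and without the MV4-11 8CA library A (0.41, edgeR adjusted p = 0.0388).

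Set beside each other per length, the deaminase and the kinase of adenosine moved apart with 8AA in both lines. The ratio of ADA to ADK in RPKM at 24 h was 0.996 and 0.918 in the untreated MV4-11 libraries, 1.46 and 1.53 under 8CA, and 1.58 and 1.6 under 8AA. In KG-1a it was 4.44 and 4.66 untreated, 5.07 and 4.4 under 8CA, and 10.3 and 8.69 under 8AA. The treated libraries did not overlap the untreated ones in MV4-11 with either drug or in KG-1a with 8AA, whereas in KG-1a with 8CA they did. This ratio is given as a description, with no test of its own.

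Over the 12 group means, each centred within its line, the level of ADK went with that of SLC29A1 (Pearson r = 0.942) and against that of NT5C2 (r = −0.93), and AMPD3 went with DCK (r = 0.924) and ADA (r = 0.869). These are descriptions across 12 points that share untreated libraries and drugs. The members were also compared with 10786 other genes that passed the filter in the fit of all 24 libraries and a minimum mean level. The 3 whose pattern was most like SLC29A1 were SCARB1 (r = 0.993), TOMM40 (0.991) and SHQ1 (0.99). Those most like ADK were EIF3I, SDHB and ATP5B (0.982, 0.982 and 0.979), those most like PNP were FTSJ3, PPP6R1 and SCAF1 (0.961, 0.956 and 0.955), and those most like ADA were ACBD7, GRN and MAGED2 (0.975, 0.962 and 0.962).

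RefSeq start sites gave 19 promoter windows of 300 bases for 9 of the 10 genes, of 35116 windows in all. A GC box stood in at least 1 window of each of the 9 genes. NT5C2 windows 1 and 2, AMPD2 window 4 and AMPD3 windows 2, 3 and 4 held none. The motif was found in 45% of all windows, which is a share per window and not per gene. The CCAAT box, in 34.6% of all windows, was found in both ADK windows, in the PNP window and in 2 of the AMPD3 windows. An E-box, in 7.26% of all windows, was found in SLC29A1 window 1 and in a window each of DCK and AMPD2. The E2F motif TTTGGCGC, in 0.652% of all windows, was found in a window of DCK, and neither TTTCGCGC (0.515%) nor the CRE (1.85%) was found in any of the 19. Thus of the 3 genes that fell in all 4 comparisons at 24 h, SLC29A1 had an E-box and no CCAAT box, and ADK and PNP had the reverse.

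A wider list of 50 genes of nucleoside transport and purine handling was examined beside the 10, and 49 were in the table and 39 were tested in at least 1 line. In MV4-11 at 24 h, 11 of 35 fell and 5 rose with 8CA, where 22.7% and 21.2% of all genes did, and 6 fell and 6 rose with 8AA, beside 15.3% and 13.9%. For KG-1a at 24 h, 15 of 34 fell and 7 rose with 8CA, beside 24.0% and 23.4% of all genes, and 15 fell and 5 rose with 8AA, beside 26.6% and 25.4%. The median log2 change of the list was −0.09 and −0.02 in MV4-11 and −0.15 and −0.15 in KG-1a. Over all genes it was 0.00216 to 0.0134, which TMM scaling holds near 0, and these medians were not tested. At 8 h, 8CA called 1 gene lower and 1 higher of 35 in MV4-11 and 0 of 34 in KG-1a, where DESeq2 was not run for this list, beside 10.4% and 0.881% of all genes either way. At 8 h, 8AA called 6 lower and 7 higher in each line, beside 29.2% of all genes either way in MV4-11 and 34.7% in KG-1a.

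The nucleotide kinases add the further phosphates. With 8CA at 24 h, 4 of 8 fell and 0 rose in MV4-11, and 4 of 8 fell and 2 rose in KG-1a, whereas with 8AA 3 fell and 1 rose in MV4-11 and 4 fell and 1 rose in KG-1a. Of all genes, 43.9% and 47.4% were called either way with 8CA and 29.1% and 51.9% with 8AA in MV4-11 and KG-1a. NME1, a nucleoside diphosphate kinase, fell in all 4 comparisons, by 0.52 and 0.45 in MV4-11 and by 0.88 and 1.03 in KG-1a under 8CA and 8AA. AK4, a mitochondrial adenylate kinase, had 2181 and 2056 counts in untreated KG-1a at 24 h and fell there by 0.60 with 8CA and by 0.86 with 8AA. In MV4-11 AK4 had 29 and 48 counts untreated, 4 and 5 under 8CA and 9 and 21 under 8AA at 24 h, changes of −3.21 and −1.36 that were called, and 6 and 7 counts untreated at 8 h. NME2, with 5 to 36 counts per library, was called once, at −1.60 in MV4-11 with 8CA at 8 h.

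Of the genes of salvage and of adenosylhomocysteine turnover, 4 of 6 fell and 0 rose in KG-1a with 8CA and 5 fell and 1 rose with 8AA at 24 h, while in MV4-11 3 fell and 1 rose with 8CA and 2 fell and 1 rose with 8AA, beside 47.4% and 51.9% of all genes called either way in KG-1a and 43.9% and 29.1% in MV4-11. No adenosine receptor was called at 24 h, of 3 tested in MV4-11 and 2 in KG-1a. ADORA1, ADORA2A and ADORA3 did not pass 30, 12 and 64 counts in any library, so they were measured at low depth. ADORA2B, tested in MV4-11 alone, reached 424. APRT, the adenine salvage enzyme, was lower by 0.58 and 0.84 in KG-1a under 8CA and 8AA and by 0.39 in MV4-11 with 8CA. Among the other nucleoside kinases, TK2, the mitochondrial thymidine kinase, rose in all 4 comparisons at 24 h, by 0.34 and 0.34 in MV4-11 and by 0.97 and 0.68 in KG-1a. TK1, the cytosolic thymidine kinase, fell with 8CA in both lines, by 0.72 in MV4-11 and by 0.39 in KG-1a, and with 8AA in MV4-11, by 0.45.

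The further transporters showed no common direction. ABCC4, an efflux pump for cyclic nucleotides and nucleotide analogs, fell in KG-1a by 0.49 with 8CA and by 0.93 with 8AA at 24 h, and was at −0.09 and 0.01 in MV4-11, not called. ABCG2 was tested in KG-1a alone and fell by 0.92 and 0.56, from 58 and 69 counts to 36 and 37 with 8CA and to 54 and 46 with 8AA. SLC29A4 was tested in MV4-11 alone and fell with 8CA by 1.43, from 15 and 17 counts to 3 and 10. Of the surface enzymes, CD38 rose with 8CA in both lines, by 1.31 and 0.65, and with 8AA in MV4-11, by 1.01. Its MV4-11 counts at 24 h were low, at 9 and 13 untreated, 30 and 31 under 8CA and 28 and 17 under 8AA. DPP4, which binds adenosine deaminase at the cell surface, fell in KG-1a by 1.17 and 0.66 and rose in MV4-11 with 8AA by 0.56. In KG-1a at 24 h DPP4 had 37 and 38 counts untreated, 14 and 22 under 8CA and 31 and 24 under 8AA. The adenosine receptor ADORA1, with 7 to 30 counts per MV4-11 library, was called once, at 1.44 with 8AA at 8 h.

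**Figure D5:**
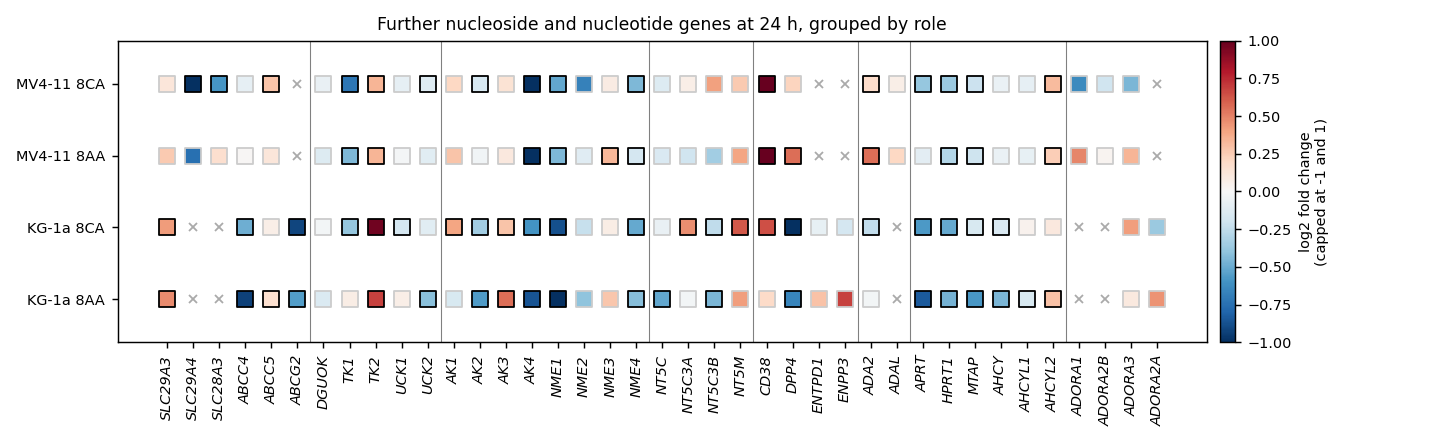
Log2 fold change at 24 h (colour, from blue for lower to red for higher, capped at −1 and 1) of 39 further nucleoside and nucleotide genes, grouped by role, with a row for each line and drug. Black frames mark an adjusted p below 0.05 and crosses mark genes not tested in that line, and NME1 is framed in blue and TK2 in red in all 4 rows.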

How the data were processed

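RNA was taken with a QIAGEN RNeasy Micro Kit and sequenced. The authors deposited raw counts per gene, with the gene's position and exon length, and their processing notes name Trimmomatic, STAR 2.6.0, HTSeq 0.11.1 and edgeR without their settings. The notes name both hg19 and hg38, and the table's coordinates were read as hg19 from its chromosome ends, whereas the promoter windows are RefSeq's on GRCh38.p14. Where genes overlap, the strand setting of the counting is not given in the sources used here.

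Counts were tested with edgeR 4.0.16 in R 4.3.3 (filterByExpr with a minimum count of 10, TMM, quasi-likelihood test, Benjamini-Hochberg adjustment over all genes tested, threshold 0.05), in a fit of the 12 libraries of each line, and of all 24 libraries between lines. CPM and RPKM come from 1 TMM scaling of all 24 libraries. Alternatives included DESeq2 1.42.0. The 10 genes, the wider list and the markers were chosen with earlier results of these data known. All 10 genes are named, with at most 12 of the wider list that passed at least 1 test, by the size of the change at 24 h, and the 3 genes most like SLC29A1, ADK, ADA and PNP.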

Additional observations from a re-analysis of the deposited data

Results flagged for a closer look

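These 22 differences between times or lines passed edgeR's quasi-likelihood test of the difference itself and are given on the log2 scale. The MV4-11 8CA response at 24 h minus 8 h was −0.355 for ADK, −0.3533 for SLC29A1 and 0.2331 for NT5C2. The MV4-11 8AA response at 24 h minus 8 h was 0.2548 for PNP. The KG-1a 8CA response at 24 h minus 8 h was −0.239 for ADK, −0.674 for SLC29A1, −0.4821 for SLC29A2 and −0.4839 for PNP. The KG-1a 8AA response at 24 h minus 8 h was −0.3825 for ADK, 0.2381 for ADA, −0.6366 for SLC29A1 and 0.2123 for NT5C2. The MV4-11 minus KG-1a 8AA response at 8 h was 0.2512 for ADK and 0.3345 for AMPD2. The MV4-11 minus KG-1a 8CA response at 24 h was 0.5502 for ADA and 0.3907 for PNP. The MV4-11 minus KG-1a 8AA response at 24 h was 0.3599 for ADK, 0.7531 for SLC29A1, −0.2174 for NT5C2, 0.621 for AMPD2, −0.3351 for AMPD3 and 0.2711 for PNP. The libraries whose removal ends a call are named with the results.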

How the results depend on the processing

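Of 190 differences tested for the 10 genes, 95 were called, and 68 of these kept their direction and their call under every alternative: DESeq2's size factors, library size alone, no filter, the replicate letter as a block, DESeq2's Wald test, and each library of the groups compared left out in turn. Libraries of the other groups in a fit were not left out for that difference. None of the 95 changed direction. The call was lost with 1 library left out for 27 and under another setting for 12, and 17 uncalled differences gained a call. No label says that the letters A and B mark a shared culture or day. Deviations of same-lettered libraries correlated at −0.118 to 0.158 over 15 pairs of groups in MV4-11, 6 of them over 0.1, and at −0.0869 to 0.159 in KG-1a, 2 over 0.1. In MV4-11 at 8 h all 3 pairs of groups were over 0.1 (0.134, 0.158 and 0.158), so a pairing there is not settled by these values. The block ended 0 calls and gave 3, for ADA with 8CA and DCK with 8AA against untreated MV4-11 at 8 h and for ADK between the times with 8AA in MV4-11 (edgeR adjusted p = 0.0256, 0.0305 and 0.0205). Fewer libraries leave fewer degrees of freedom, but the cause of the shifts, with a library left out or otherwise, was not tested. With DESeq2's Wald test, the number of genes called went from 1325 to 883 for MV4-11 8CA against untreated cells at 8 h, 853 to 553 for MV4-11 8AA against 8CA at 8 h and 2716 to 1800 for MV4-11 8AA against 8CA at 24 h. With the replicate letter as a block, the number of genes called went from 853 to 1369 for MV4-11 8AA against 8CA at 8 h, 593 to 1123 for MV4-11 8AA response at 24 h minus 8 h and 112 to 205 for KG-1a 8CA against untreated cells at 8 h. Without a filter on low counts, the number of genes called went from 593 to 952 for MV4-11 8AA response at 24 h minus 8 h, 112 to 272 for KG-1a 8CA against untreated cells at 8 h and 162 to 246 for MV4-11 minus KG-1a 8CA response at 8 h. With 1 library left out, the count ran from 548 to 693 for MV4-11 8CA against untreated cells at 8 h (1325 with all libraries), from 371 to 492 for MV4-11 8AA against 8CA at 8 h (853 with all libraries), from 2179 to 2789 for MV4-11 8AA against untreated cells at 24 h (3726 with all libraries), from 1153 to 1839 for MV4-11 8AA against 8CA at 24 h (2716 with all libraries), from 1168 to 1876 for MV4-11 8CA response at 24 h minus 8 h (2088 with all libraries), from 118 to 431 for MV4-11 8AA response at 24 h minus 8 h (593 with all libraries), from 28 to 36 for KG-1a 8CA against untreated cells at 8 h (112 with all libraries), from 2843 to 3286 for KG-1a 8AA against untreated cells at 8 h (4415 with all libraries), from 2254 to 2384 for KG-1a 8AA against 8CA at 8 h (3868 with all libraries), from 1364 to 3994 for KG-1a 8AA response at 24 h minus 8 h (2330 with all libraries), from 82 to 119 for MV4-11 minus KG-1a 8CA response at 8 h (162 with all libraries), from 1038 to 1300 for MV4-11 minus KG-1a 8AA response at 8 h (1559 with all libraries) and from 1036 to 1156 for MV4-11 minus KG-1a 8CA response at 24 h (1574 with all libraries). Among the 10 genes, differences that were not called and lay near 0 changed sign under these settings. With scaling to library size alone, the log2 difference was 0.01163 for ADK (MV4-11 8CA against untreated cells at 8 h), 0.003866 for PNP (MV4-11 8CA response at 24 h minus 8 h), −0.03487 for SLC29A1 (MV4-11 minus KG-1a 8AA response at 8 h), −0.03148 for ADA (MV4-11 minus KG-1a 8AA response at 24 h) and −0.02886 for SLC29A1 (MV4-11 against KG-1a in untreated cells at 24 h). With DESeq2's Wald test, the log2 difference was −0.0006093 for DCK (MV4-11 8CA against untreated cells at 8 h), −0.006857 for NT5C2 (MV4-11 8AA against untreated cells at 8 h), −0.004514 for DCK (MV4-11 8AA against untreated cells at 24 h) and −0.02749 for SLC29A1 (MV4-11 minus KG-1a 8AA response at 8 h). With DESeq2's size factors, the log2 difference was −0.004639 for NT5C2 (MV4-11 8AA against untreated cells at 8 h), −0.002673 for DCK (MV4-11 8AA against untreated cells at 24 h) and −0.02682 for SLC29A1 (MV4-11 minus KG-1a 8AA response at 8 h). With the replicate letter as a block, the log2 difference was −0.001827 for DCK (MV4-11 8AA against untreated cells at 24 h) and −2e-05 for SLC29A1 (MV4-11 minus KG-1a 8AA response at 8 h). Without a filter on low counts, the log2 difference was 0.0006507 for PNP (MV4-11 8CA response at 24 h minus 8 h), −0.07245 for SLC29A1 (MV4-11 minus KG-1a 8AA response at 8 h) and −0.04022 for ADA (MV4-11 minus KG-1a 8AA response at 24 h). DCK changed sign with 1 library left out, from −0.07139 to 0.09495 (MV4-11 8CA against untreated cells at 8 h), −0.04299 to 0.03785 (MV4-11 8AA against untreated cells at 24 h), −0.1575 to 0.008816 (MV4-11 8CA response at 24 h minus 8 h), −0.03069 to 0.06909 (KG-1a 8CA response at 24 h minus 8 h), −0.0942 to 0.06957 (MV4-11 minus KG-1a 8CA response at 8 h) and −0.01503 to 0.1779 (MV4-11 minus KG-1a 8AA response at 8 h). NT5C2 changed sign with 1 library left out, from −0.01828 to 0.02617 (MV4-11 8AA against untreated cells at 8 h) and −0.04993 to 0.0119 (MV4-11 minus KG-1a 8CA response at 24 h). AMPD2 changed sign with 1 library left out, from −0.01552 to 0.03854 (MV4-11 8AA against 8CA at 8 h), −0.02928 to 0.1086 (MV4-11 8AA against 8CA at 24 h), −0.02173 to 0.05863 (KG-1a 8CA response at 24 h minus 8 h) and −0.0467 to 0.1093 (MV4-11 minus KG-1a 8CA response at 8 h). AMPD3 changed sign with 1 library left out, from −0.1175 to 0.1557 (MV4-11 8CA against untreated cells at 24 h) and −0.2277 to 0.04037 (MV4-11 minus KG-1a 8CA response at 24 h). ADA changed sign with 1 library left out, from −0.027 to 0.1654 (MV4-11 8CA response at 24 h minus 8 h) and −0.1158 to 0.1091 (MV4-11 minus KG-1a 8AA response at 24 h). PNP changed sign with 1 library left out, from −0.06014 to 0.02423 (MV4-11 8CA response at 24 h minus 8 h), −0.1767 to 0.01641 (KG-1a 8AA response at 24 h minus 8 h) and −0.1692 to 0.02182 (MV4-11 minus KG-1a 8AA response at 8 h). SLC29A2 changed sign with 1 library left out, from −0.03734 to 0.05464 (KG-1a 8AA response at 24 h minus 8 h), −0.66 to 0.2346 (MV4-11 minus KG-1a 8CA response at 8 h), −0.3562 to 1.357 (MV4-11 minus KG-1a 8AA response at 8 h) and −0.7298 to 1.034 (MV4-11 minus KG-1a 8AA response at 24 h). SLC29A1 changed sign with 1 library left out, from −0.1332 to 0.07214 (MV4-11 minus KG-1a 8AA response at 8 h) and −0.09709 to 0.04479 (MV4-11 against KG-1a in untreated cells at 8 h). ADK changed sign with 1 library left out, from −0.1291 to 0.0159 (MV4-11 minus KG-1a 8CA response at 24 h). Library size alone moved the median of all genes to 0.108 with 8AA in KG-1a at 24 h and to −0.109 between the untreated lines at 24 h, on the log2 scale, and the share of calls that were lower went from 55.8% to 38.3% (8CA) and 53.4% to 38.8% (8AA) in MV4-11 at 8 h, from 51.8% to 41.1% and 52.4% to 36.2% at 24 h, from 51.9% to 41.8% at 8 h and 51.2% to 35.5% at 24 h with 8AA in KG-1a, from 51.6% to 36.4% for 8AA against 8CA there at 24 h, from 58.3% to 41.7% between its 8AA responses, and from 32.5% to 44.1% and 38.2% to 54% for the line differences with 8AA at 8 h and 24 h. Depth left SLC29A2 in MV4-11 and NT5E in both lines untested.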
